A study of Mus musculus with 2 samples.

Results

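Non-mitotic intermediate progenitors (IPCs) were chosen from the single-cell transcriptomes of the embryonic mouse dorsal telencephalon by the UMIs (unique molecular identifiers, each marking 1 captured RNA molecule) of 14 genes. A cell barcode was a member if it held at least 2 UMIs of *Eomes*, at least 2 of *Neurog2*, *Gadd45g* and *Btg2* together, at most 2 of the cell cycle genes *Top2a*, *Mki67* and *Cenpf* together, and at most 2 of *Neurod6*, a gene of young excitatory neurons. At most 1 UMI was allowed of the Cajal-Retzius genes *Trp73*, *Lhx1* and *Lhx5* together, and at most 1 of the GABAergic genes *Gad1*, *Gad2* and *Dlx6os1* together. The rule was applied to barcodes with 1500 to 60000 UMIs and under 10% of UMIs from mitochondrial genes. It found 611 members among 12936 kept barcodes (of 15033 in all), 233 of 5453 in the library of replicate 1 and 378 of 7483 in that of replicate 3.

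The 2 libraries came from embryos at embryonic day 14.5 whose genotype is given as WT, from a mouse line titled EoMltt3. The labels do not say whether these WT embryos carried a Cre allele, nor which animals or litters the replicate numbers stand for, so p-values measure only the spread between the 2 libraries. Both libraries are of 1 genotype, and no comparison of genotypes was made. The dorsal telencephalon was dissected, dissociated with papain and profiled by droplet-based sequencing of polyadenylated RNA. The libraries held 6163 and 8870 barcodes and 64182006 and 93295807 UMIs, with a median of 9802 and 9754 UMIs per barcode. The libraries shared 23 barcode strings, none of them among members.

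In the developing cortex, radial glial cells (RGCs) line the ventricle and give rise to excitatory neurons either directly or through IPCs, which leave the ventricular surface, settle in the subventricular zone and divide there to produce neurons. Entry into the IPC state is marked by the T-box factor *Eomes* (*Tbr2*) and follows the proneural factor *Neurog2*, whose targets include the growth arrest gene *Gadd45g* and Notch ligands. *Btg2* is an antiproliferative gene known to mark progenitors that undergo neurogenic division. Between divisions, or before becoming neurons, IPCs lack the transcripts of mitosis, which is the state the rule asks for.

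The values that chose the members are a description only. *Eomes* (mm10 chr9:118478186-118486132) had a median of 8 UMIs per member in replicate 1 and 4 in replicate 3, and its summed level was 824 and 513 CPM (the counts of the gene scaled to a summed depth of 1e+06 UMIs of the members together). *Neurog2* stood at 692 and 540 CPM, *Gadd45g* at 696 and 1014 CPM, and *Btg2* at 209 and 201 CPM. The median summed UMIs of these 3 genes was 15 in each library. No UMI of *Top2a*, *Mki67* or *Cenpf* was present in 82.4% and 80.7% of members, and no *Neurod6* UMI in 53.6% and 52.1%. At the edge of the rule, 21 and 81 members held exactly 2 *Eomes* UMIs, while 24 and 104 barcodes that met every other term held 1. For *Neurod6*, 44 and 79 members stood at 2 UMIs, and 31 and 70 barcodes with 3 UMIs fell just outside.

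Members were 4.27% of kept barcodes in replicate 1 (95% Wilson interval 3.77 to 4.84, counting error only) and 5.05% in replicate 3 (4.58 to 5.57). They were 26.8% and 27.1% of all kept barcodes with at least 2 *Eomes* UMIs. The median depth of members was 10786 and 9975.5 UMIs, with 3658 and 3444 genes detected. Depth ran from 2751 to 26011 UMIs in replicate 1 and from 1643 to 27735 in replicate 3, so the rule's fixed UMI limits bore differently on shallow and deep members.

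The members were set beside 3 other gates, each differing from the rule in named terms. The cycling gate was the rule with at least 3 UMIs of *Top2a*, *Mki67* and *Cenpf* together (48 and 52 barcodes). The *Neurod6*-positive gate was the rule with at least 3 *Neurod6* UMIs (322 and 601 barcodes). The radial glia gate held barcodes with no *Eomes* UMI, at most 1 UMI of *Neurog2*, *Gadd45g* and *Btg2*, at least 1 of *Sox2* and at least 2 of *Slc1a3*, the other terms as for members (113 and 282 barcodes). Median depth was 14388 and 13039.5 UMIs in the cycling gate, 11135 and 11384 in the *Neurod6*-positive gate, and 10862 and 10856.5 in the radial glia gate. The 304 and 629 kept barcodes with the highest doublet scores (Scrublet, against simulated pairs of cells) included 0 and 9 members (2.38%), 2 and 9 cycling barcodes (4.17% and 17.3%), 34 and 80 *Neurod6*-positive barcodes (10.6% and 13.3%), and 6 and 8 radial glia barcodes.

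The label was set beside cycle genes that the rule did not name. After each barcode was thinned to 5000 UMIs, at least 5 UMIs of 34 G2 and M phase genes were found in 7.46% and 10.8% of members, against 95.7% and 92.3% of the cycling gate, 4.05% and 7.37% of the *Neurod6*-positive gate, and 47.7% and 50.4% of the radial glia gate. The members had fewer transcripts of mitosis than the cycling and radial glia gates in both libraries. The members were limited to at most 2 UMIs of *Top2a*, *Mki67* and *Cenpf*, with which G2 and M phase genes are co-expressed, and the cycling gate was set by the same genes, so the contrast between them follows from the rule and is no check of the label. At least 5 UMIs of 30 S phase genes were found in 22.8% and 30.6% of members, against 85.1% and 84.6% of cycling, 13.1% and 14.4% of *Neurod6*-positive and 82.6% and 88.9% of radial glia barcodes. The rule thus left in members with S phase transcripts, and "non-mitotic" describes the members more closely than non-cycling would. Thinning left out 5 and 35 members with fewer than 5000 UMIs.

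**Figure D1:**
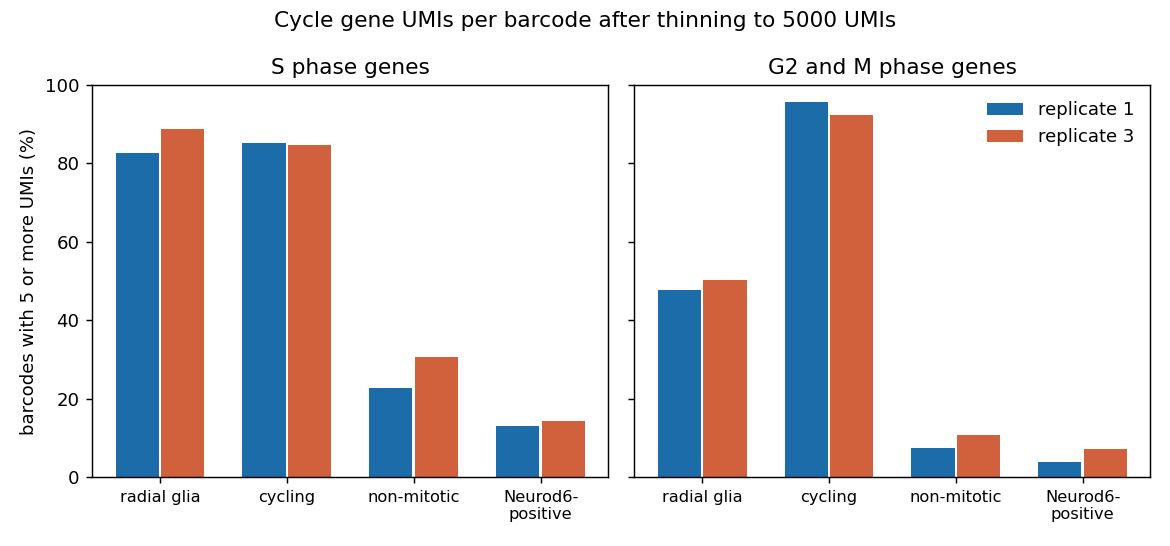
Percent of barcodes (vertical axis) with at least 5 UMIs of 30 S phase genes and of 34 G2 and M phase genes, each barcode thinned to 5000 UMIs, in the 4 gates; each bar is 1 library. The bars of the members for G2 and M phase genes stand at 7.46% and 10.8%, and those of the radial glia gate at 47.7% and 50.4%.

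Markers of other cell types summed to less in members than over all kept barcodes, but not to 0. The 16 GABAergic genes summed to 83.9 and 54.5 CPM in members, against 599 and 214 CPM over all kept barcodes, with 4 and 2 of the 16 at 0. The 9 Cajal-Retzius genes summed to 96.6 and 94.0 CPM (234 and 222 over all kept barcodes, 6.20 and 21.6 in the radial glia gate). Of these 9, 3 were at 10 CPM or more in members, among them the transcription factor genes *Ebf3* (39.2 and 50.6 CPM) and *Nhlh2* (14.6 and 17.0 CPM), while the defining genes *Trp73*, *Lhx1* and *Lhx5*, limited by the rule, stood below 1 CPM. Globin and other blood genes summed to 147 and 542 CPM (5291 and 6267 over all kept barcodes), and differed as much between the libraries in the *Neurod6*-positive gate (107 and 504 CPM). Endothelial, pericyte, meningeal and microglial lists summed to between 3.41 and 45.6 CPM in members. Of these, the 7 meningeal genes summed to 31.7 and 18.6 CPM in members, against 1.42 and 2.53 CPM in the *Neurod6*-positive gate and 99.2 and 43.6 CPM in the radial glia gate. The 8 endothelial genes summed to 6.73 and 45.6 CPM in members and to 5.93 and 8.74 CPM in the *Neurod6*-positive gate. They stood at 17.0 and 19.1 CPM in the radial glia gate and at 71.0 and 72.4 CPM over all kept barcodes. The 8 microglial genes summed to 7.52 and 24.1 CPM in members and to 65.7 and 45.9 CPM over all kept barcodes. Choroid plexus and hem genes summed to 38.4 and 188 CPM in members and to 84.4 and 666 CPM in the radial glia gate. The part of these transcripts in the results below was not tested.

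Gene levels were compared between gates on UMIs summed over the barcodes of each gate and library (8 sums), with edgeR's quasi-likelihood test across 12343 genes and Benjamini-Hochberg adjustment, a gene being called at an adjusted p under 0.05. Paired values are given in the order replicate 1, replicate 3. Fold changes are log2, members minus the other gate, with their standard error (SE), and each rests on n = 2 libraries. The 14 genes of the rule and *Sox2* and *Slc1a3* were not tested. Genes that follow these 16 are not independent of the gates, and the 3 comparisons share the members' sums, so their fold changes are given side by side and were not counted against each other. Fewer cells with a transcript and less transcript per cell cannot be told apart in sums.

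**Figure D2:**
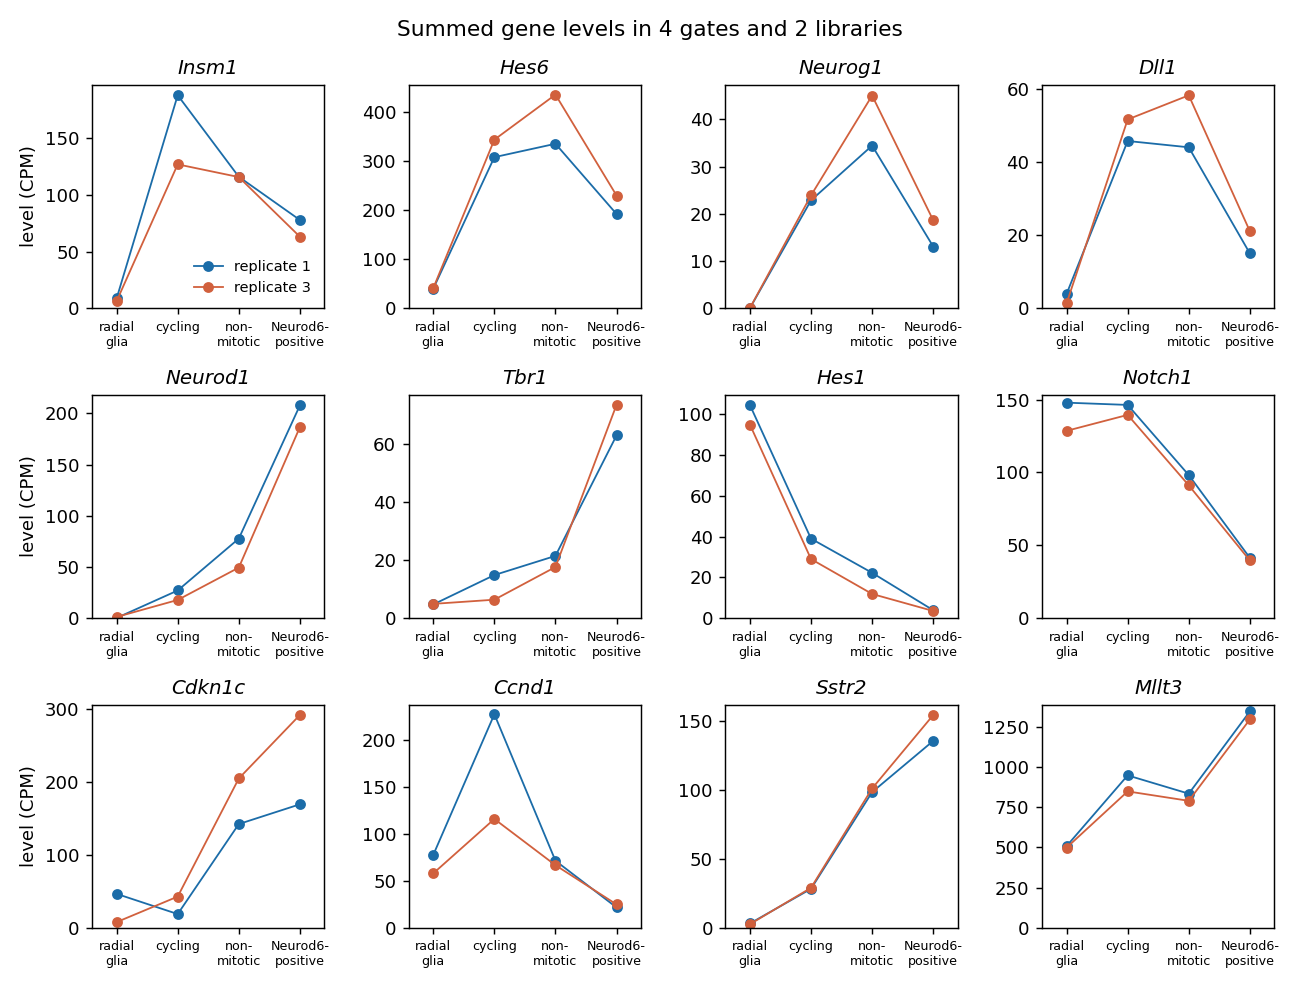
Summed level (CPM, vertical axis) of 12 genes in the radial glia, cycling, non-mitotic and *Neurod6*-positive gates (horizontal axis), each line being 1 library. *Dll1* stands at 43.9 and 58.1 CPM in members and at 3.87 and 1.29 CPM in the radial glia gate, and *Hes1* at 22.2 and 11.8 CPM in members and at 105 and 94.99 CPM in the radial glia gate.

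Against the radial glia gate, proneural and neuronal differentiation factors were higher in members almost throughout. Of 20 such genes, 18 were higher, 0 were lower and 2 (*Bhlhe22* and *Myt1l*) did not pass the test, with a median log2 fold change of 3.35. Over all genes tested, 29.7% were called in this comparison (3661 genes, 14.3% higher and 15.4% lower) and the median was 0.00. *Insm1* (mm10 chr2:146221997-146225020), a zinc finger factor that promotes the formation of basal progenitors, stood at 116 and 116 CPM in members and 8.52 and 6.14 CPM in the radial glia gate (log2 fold change 3.99, SE 0.25, adjusted p = 3.9e-06). *Hes6*, which opposes the Notch effector *Hes1*, stood at 335 and 435 CPM against 39.5 and 40.7 CPM (3.29, SE 0.18, adjusted p = 1.7e-06). For both genes the libraries of the gates did not overlap.

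*Neurog1*, a proneural factor related to *Neurog2*, was at 34.4 and 45.1 CPM in members and had no UMI in the radial glia gate. With 3 counts over that gate as the limit of a 0, it was at least 59.7-fold higher in members. *Neurod4* stood at 17.8 and 25.4 CPM and likewise had no UMI in the radial glia gate, which makes it at least 32.7-fold higher. *Neurod1*, a factor of neuronal differentiation, was at 77.6 and 49.2 CPM against 3 UMIs in all, a ratio of 88.5 with a counting interval of 30.1 to 431. *Neurod2* was at 104 and 111 CPM against 7.75 and 10.99 CPM, and *Tbr1*, which follows *Eomes* in the sequence from IPC to neuron, at 21.4 and 17.5 CPM against 4.65 and 4.85 CPM (1.92, SE 0.29, adjusted p = 0.00079). Thus factors of early and of later neuronal differentiation were both above the radial glia gate. *Eomes* and *Neurog2* helped to set both gates, so factors that go with them are not independent of the gates. Their differences are a description.

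Shares of barcodes showed the same genes one cell at a time. Thinned to 5000 UMIs, *Insm1* had a UMI in 44.3% and 39.4% of members, *Hes6* in 78.5% and 84.0%, *Neurod1* in 17.1% and 13.7% and *Tbr1* in 9.65% and 8.75%. *Neurog1* was found in 14.04% and 20.4% of members (26.6% and 30.4% unthinned). In the radial glia gate 0 of 109 and 0 of 270 thinned barcodes held a UMI of it, which allows a share of barcodes with a UMI of up to 2.75% and 1.11% at that depth and sets no limit on the share of cells that express it. Unthinned, 0 of 113 and 0 of 282 barcodes of that gate held one. *Pax6* and *Sox2*, factors of RGCs that persist into early IPCs, had a UMI in 43.9% and 39.4%, and in 46.1% and 36.2% of members.

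Notch signalling genes divided by role. Of 9 tested genes of the ligand and modulator list (3 others were not tested for low counts), 5 were higher in members than in the radial glia gate and 1 was lower, with a median of 0.97. *Dll1* (mm10 chr17:15367354-15376932), the ligand by which differentiating cells activate Notch in their neighbours, was at 43.9 and 58.1 CPM against 3.87 and 1.29 CPM (4.29, SE 0.36, adjusted p = 2.1e-05). *Dll3*, a ligand-like protein that acts within the cell, was at 13.9 and 20.7 CPM against 1.55 and 0.969 CPM (3.37, SE 0.43, adjusted p = 0.00028). The glycosyltransferase gene *Mfng*, whose product modifies Notch, was at 164 and 159 CPM against 8.52 and 7.11 CPM (4.35, SE 0.18, adjusted p = 5.9e-07), while the related *Lfng* was lower, at 0 and 2.10 CPM against 16.3 and 13.6 CPM.

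In the receptor and target list, 8 of 12 genes were lower in members than in the radial glia gate and 3 were higher (*Maml3*, *Rbpj* and *Maml1*), with a median of -1.31. The Notch effector *Hes1* stood at 22.2 and 11.8 CPM against 105 and 94.99 CPM (-2.50, SE 0.23, adjusted p = 3.8e-05), and *Hes5* at 41.6 and 13.6 CPM against 134 and 74.3 CPM (-1.86, SE 0.41, adjusted p = 0.0067). The receptor *Notch2* was at 36.03 and 24.1 CPM against 221 and 194 CPM (-2.72, SE 0.17), whereas *Notch1* fell by only 0.48 on the log2 scale, from 148 and 129 to 98.2 and 91.2 CPM (adjusted p = 0.013). In the members *Dll1* stood above the radial glia gate, and *Hes1* and *Hes5* below it. *Neurog2*, whose targets include Notch ligands, helped to set both gates, and *Sox2* and *Slc1a3* set the radial glia gate. The contrast is therefore not independent of the gates and is a description.

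Radial glial genes other than those of the gate follow it, and 21 of 24 were lower in members (median -1.87), with 0 higher. *Fabp7*, a fatty acid binding protein, stood at 503 and 399 CPM against 5629 and 3737 CPM, and *Ptprz1*, a receptor phosphatase, at 238 and 117 CPM against 1766 and 900 CPM. *Pax6* was not called, at 154 and 139 CPM against 177 and 158 CPM (-0.14, SE 0.13, adjusted p = 0.46). *Hopx*, a gene of RGCs, was at 4.75 and 4.19 CPM against 68.2 and 33.9 CPM.

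Among 17 genes of delamination and apical junctions, 10 were higher in members than in the radial glia gate and 4 were lower, with a median of 0.65. *Lzts1* and *Akna*, known to promote the leaving of the ventricular surface, were higher. *Lzts1* was at 209 and 197 CPM against 7.75 and 12.3 CPM (4.21, SE 0.18, adjusted p = 5.9e-07), and *Akna* at 29.3 and 17.3 CPM against 2.32 and 3.55 CPM (2.66, SE 0.38, adjusted p = 0.00057). The transcriptional repressor gene *Scrt2* was at 26.5 and 30.9 CPM against 3 UMIs in all, a ratio of 42.6 (14.4 to 209). Lower were *Plekha7*, of adherens junctions, at 17.4 and 13.4 CPM against 94.5 and 88.9 CPM, and *Crb2*, of the apical domain, at 1.19 and 1.83 CPM against 14.7 and 16.2 CPM. *Cdh2*, the main cadherin of these junctions, was lower by less, at 689 and 742 CPM against 1104 and 1062 CPM (-0.54, SE 0.11, adjusted p = 0.0039). Also called higher in members were *Scrt1*, *Ezr*, *Cdc42ep4*, *Crb1*, *Ctnna2*, *Ctnnb1* and *Pard3*. The junction and apical genes of the list thus went both ways.

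All 30 S phase genes tested were lower in members than in the radial glia gate (median -2.002), and the rule's cycle terms were the same in both gates. The growth arrest gene *Gadd45g* and the antiproliferative gene *Btg2* did help to set the gates apart. Cycle genes are therefore not independent of the gates, and their differences are a description. *Mcm5*, of the replicative helicase, stood at 19.4 and 24.6 CPM against 103 and 112 CPM (-2.19, SE 0.15), and *Pcna*, the replication clamp, at 67.7 and 75.7 CPM against 267 and 254 CPM (-1.79, SE 0.12). Of 34 G2 and M phase genes, 22 were lower and 0 higher. The cell cycle inhibitor *Cdkn1c* was higher, at 142 and 205 CPM against 46.5 and 7.75 CPM (3.01, SE 0.57, adjusted p = 0.0031), with its level in the radial glia gate of the libraries far apart. The D cyclins differed: *Ccnd2* was lower (445 and 464 against 636 and 808 CPM, -0.61, SE 0.14, adjusted p = 0.0072), while *Ccnd1* was not called, at 71.3 and 66.5 against 77.5 and 57.8 CPM (0.11).

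Migration and axon growth genes were of both kinds, with 13 of 30 higher, 7 lower and a median of 0.28. The 7 lower genes were *Dab1*, *Flrt2*, *Nrcam*, *Rac3*, *Map1b*, *Tubb2b* and *Rapgef2*. The small GTPase gene *Rnd2*, a target of *Neurog2* in migration, was at 99.4 and 114 CPM against 15.5 and 17.1 CPM (2.70, SE 0.22, adjusted p = 1.6e-05), and the microtubule protein gene *Dcx* at 204 and 191 CPM against 22.5 and 22.3 CPM. *Unc5d*, a netrin receptor gene of the subventricular zone, was at 892 and 475 CPM against 290 and 69.1 CPM (2.04, SE 0.52, adjusted p = 0.015). Its level in both gates was higher in replicate 1. *Lrp8*, a receptor of reelin, was at 390 and 332 CPM against 55.0 and 37.2 CPM.

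**Figure D3:**
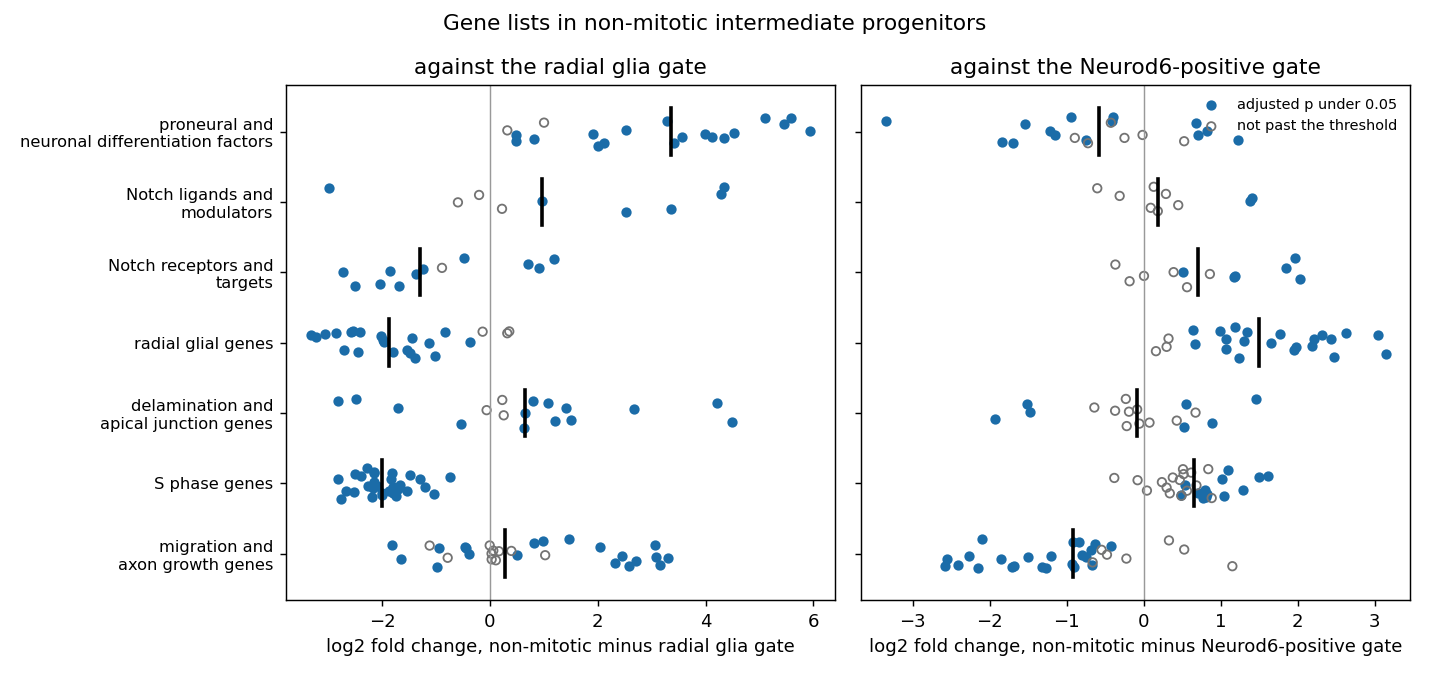
Log2 fold change (horizontal axis) of each tested gene of 7 lists (vertical axis), members minus radial glia gate on the left and members minus *Neurod6*-positive gate on the right. Filled points have an adjusted p under 0.05, open points do not, and the black bar is the list's median. The radial glial list has its median at -1.87 on the left and 1.496 on the right, and the S phase list at -2.002 and 0.65.

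Among the 10 named genes with the largest positive change in that comparison, several are of neurons. *Srrm4*, a splicing regulator of neurons, stood at 593 and 700 CPM against 22.5 and 24.9 CPM, *Rbfox3* (NeuN) at 433 and 373 CPM against 13.2 and 6.46 CPM, and the vesicular glutamate transporter gene *Slc17a6* at 77.6 and 74.6 CPM against 0.775 and 1.29 CPM. Of the others, *Cbfa2t3* was at 79.6 and 66.8 CPM against 2 UMIs in all (ratio 158, 43.4 to 1306), and *Sstr2* is given below with the receptors. Among the 10 largest negative changes were *Fabp7*, *Kbtbd11* (1.98 and 3.41 against 90.6 and 65.9 CPM), the immediate early gene *Ccn1* (3.96 and 2.36 against 60.4 and 54.6 CPM), *Fgfbp3* (8.31 and 7.33 against 138 and 118 CPM) and *Pde4b*.

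Against the cycling gate, 5 of 20 proneural and neuronal factors were higher in members, and few of the early IPC factors were called. Of 12343 genes, 1461 were called (11.8%; 4.51% higher and 7.32% lower in members), with 38.1% of calls higher and a median of 0.07. With DESeq2 1059 genes were called, of which 267 (25.2%) were higher. The cycling gate was set by *Top2a*, *Mki67* and *Cenpf*, so other cycle genes, regulators of G1 among them, are not independent of the gates. Their levels and tests in this comparison are a description. Mitotic genes such as *Kif4*, a kinesin, stood at 0.396 and 1.05 CPM in members and 189 and 224 CPM in the cycling gate, *Ccnb1*, the mitotic cyclin, at 1.98 and 3.14 against 195 and 252 CPM, and *Mcm5* at 19.4 and 24.6 against 87.3 and 83.0 CPM.

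*Cdkn1c* (p57), which restrains progenitor division, was at 142 and 205 CPM in members and 18.8 and 42.8 CPM in the cycling gate (2.51, SE 0.63, adjusted p = 0.027). It was not called by DESeq2 or with gates set on thinned barcodes. The D cyclin genes *Ccnd1* and *Ccnd2* were lower, at 71.3 and 66.5 against 227 and 116 CPM (-1.26, SE 0.26, adjusted p = 0.012) and at 445 and 464 against 751 and 649 CPM (-0.57, SE 0.14, adjusted p = 0.024). Of 25 regulators of G1, 1 (*Cdkn1c*) was higher and 12 were lower, with a median of -0.57. The third D cyclin gene, *Ccnd3*, was not called, at 21.8 and 16.0 against 22.8 and 16.3 CPM. The genes of 2 other inhibitors of cyclin-dependent kinases were among those lower in members, *Cdkn2c* at 3.96 and 4.19 against 40.3 and 37.7 CPM (-3.01, SE 0.30) and *Cdkn2d* at 9.50 and 14.9 against 48.4 and 46.5 CPM (-1.82, SE 0.26), and *Cdkn1b* was not called (0.18). *Ccnd3*, *Cdkn2c*, *Cdkn2d* and *Cdkn1b* were picked from the list after their values were seen.

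Of the 20 proneural and neuronal factors, 5 were higher than in the cycling gate and 0 lower (median 0.71): *Neurod1*, *Myt1*, *Sox4*, *Neurod2* and *Zbtb18*. *Neurod1* stood at 77.6 and 49.2 against 26.9 and 17.6 CPM (1.52, SE 0.31, adjusted p = 0.011), and *Myt1*, a zinc finger factor of neuronal differentiation, at 177 and 175 against 65.8 and 76.7 CPM (1.34, SE 0.21). *Insm1* was not called, at 116 and 116 against 188 and 127 CPM (-0.39, SE 0.19, adjusted p = 0.22), nor was *Dll1*, at 43.9 and 58.1 against 45.7 and 51.6 CPM (0.13). With the library as a block, *Neurog1* (0.80, adjusted p = 0.038), *Nhlh1* (2.40, adjusted p = 0.0014), *Pax6* (-0.40, adjusted p = 0.019), *Hes1* (-0.97, adjusted p = 0.022) and *Epha4* (0.45, adjusted p = 0.0012) were called as well.

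*Mfng* was the only gene called of the 9 Notch ligands and modulators in this comparison, at 164 and 159 against 95.4 and 106 CPM (0.73, SE 0.14, adjusted p = 0.0083). Among 12 receptors and targets, *Notch1* (98.2 and 91.2 against 146 and 140 CPM), *Notch2* and *Maml2* were lower and 0 were higher. Of 24 radial glial genes, 9 were lower, such as *Fabp7* at 503 and 399 against 915 and 842 CPM and *Nes*, of intermediate filaments, at 62.9 and 54.0 against 140 and 102 CPM. Of 30 migration genes, 8 were higher and 2 lower, among them *Plxna4*, a semaphorin receptor, at 142 and 107 against 41.6 and 30.2 CPM (1.82, SE 0.23), and *Dcx* at 204 and 191 against 106 and 89.3 CPM. Where the gates were set on thinned barcodes, the radial glial list gave 1 higher and 1 lower, the migration list 1 and 2, and the proneural list 1 and 1.

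Among the 10 largest positive changes against the cycling gate were *Trpc4*, a calcium-permeable channel (98.6 and 83.0 against 20.1 and 8.80 CPM), the sulfotransferase gene *Ust* (397 and 420 against 39.0 and 123 CPM), *Disp3*, *Dpysl4*, *Mpped1* and the ankyrin gene *Ank3* (102 and 130 against 32.2 and 45.3 CPM). Of these 10 genes, 9 were called by DESeq2 (all but *Cdkn1c*) and 5 with gates set on thinned barcodes.

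Against the *Neurod6*-positive gate, members held more of the radial glial, Notch and S phase transcripts and less of the neuronal ones. The 2 gates differ in *Neurod6* alone, a gene of young excitatory neurons. Genes that go with neuronal differentiation are therefore not independent of the gates, and their differences are a description. Of 12343 genes, 1796 (14.6%) were called, 6.75% higher and 7.80% lower in members, with a median of 0.01. The count was 2873 with the library as a block, 1082 with DESeq2 and 235 with gates set on thinned barcodes. In the *Neurod6*-positive gate 10.6% and 13.3% of barcodes had a high doublet score, against 0% and 2.38% of members, and 1461 genes were called without such barcodes.

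Of the 24 radial glial genes, 21 were higher and 0 lower than in the *Neurod6*-positive gate, with a median of 1.496 (22 higher without the doublet-scored barcodes, 12 with gates on thinned barcodes). *Ddah1* was at 205 and 169 against 36.3 and 28.7 CPM (2.47, SE 0.16, adjusted p = 3.6e-05), and *Vim*, an intermediate filament of progenitors, at 1284 and 1222 against 312 and 314 CPM (1.95, SE 0.11). *Ednrb*, the endothelin receptor, stood at 21.4 and 16.5 against 1.19 and 1.65 CPM (3.14, SE 0.29). *Pax6* was higher too, at 154 and 139 against 92.1 and 88.4 CPM (0.64, SE 0.12, adjusted p = 0.0067).

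Of the 12 Notch receptors and targets, 6 were higher than in the *Neurod6*-positive gate and 0 lower (median 0.71): *Hes5*, *Hes1*, *Notch2*, *Notch3*, *Notch1* and *Maml3*. *Hes1* was at 22.2 and 11.8 against 3.80 and 3.42 CPM (1.97, SE 0.29, adjusted p = 0.0015), *Hes5* at 41.6 and 13.6 against 6.88 and 4.94 CPM (2.03, SE 0.48, adjusted p = 0.018) and *Notch1* at 98.2 and 91.2 against 41.3 and 39.5 CPM (1.17, SE 0.12). Among the ligands, *Dll1* was higher, at 43.9 and 58.1 against 14.9 and 21.0 CPM (1.41, SE 0.22, adjusted p = 0.0022), as was *Jag1* (1.38). *Dll3*, *Mfng* and *Numbl* were not called, *Mfng* standing at 164 and 159 against 134 and 159 CPM. In members the Notch effectors thus lay between the radial glia and the *Neurod6*-positive gate, and *Dll1* lay above both.

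The proneural and neuronal list split. *Neurog1* (34.4 and 45.1 against 13.1 and 18.6 CPM, 1.23, SE 0.22, adjusted p = 0.0057), *Hes6* (335 and 435 against 192 and 229 CPM), *Ebf3* and *Insm1* (116 and 116 against 77.8 and 63.1 CPM) were higher in members. The other 10 called of the 20 were lower, with a median over the list of -0.57. *Tbr1* was at 21.4 and 17.5 against 62.9 and 73.4 CPM (-1.84, SE 0.18, adjusted p = 0.0002), *Neurod1* at 77.6 and 49.2 against 208 and 187 CPM (-1.69, SE 0.20, adjusted p = 0.0005), and *Myt1l*, which represses non-neuronal genes, at 40.0 and 47.7 against 437 and 441 CPM (-3.34, SE 0.35). With gates set on thinned barcodes 0 of the list were higher and 2 lower. The block also called *Nhlh1* lower (-0.91, adjusted p = 0.0021).

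Migration and axon growth genes were lower in members for 23 of 30, with 0 higher and a median of -0.91 (14 lower without the doublet-scored barcodes, 4 with gates on thinned barcodes). *Unc5d* stood at 892 and 475 against 3521 and 2355 CPM (-2.16, SE 0.50, adjusted p = 0.017), *Rnd2* at 99.4 and 114 against 181 and 215 CPM (-0.93, SE 0.16, adjusted p = 0.0044), and *Dcx* at 204 and 191 against 658 and 597 CPM (-1.71, SE 0.12). The order of *Rnd2*, *Unc5d* and *Dcx* was the same in both libraries: least in the radial glia gate, then the members, then the *Neurod6*-positive gate. The list as a whole did not share this order. *Dab1*, *Flrt2*, *Map1b*, *Tubb2b* and *Rapgef2* were called lower in members than in both of these gates. *Scrt1* and *Scrt2* were also lower in members than in this gate (*Scrt2* at 26.5 and 30.9 against 81.2 and 81.4 CPM), while *Lzts1*, at 209 and 197 against 238 and 220 CPM, was not called (-0.22, adjusted p = 0.30).

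S phase genes were higher in members than in the *Neurod6*-positive gate for 14 of 30, with 0 lower and a median of 0.65. *Mcm3*, of the helicase, was at 31.3 and 38.5 against 10.9 and 12.2 CPM (1.498, SE 0.16), and *Pcna* at 67.7 and 75.7 against 41.5 and 43.2 CPM (0.70, SE 0.12). Of 34 G2 and M phase genes, 1 (*Ect2*) was higher. *Ccnd1* was at 71.3 and 66.5 against 21.6 and 24.8 CPM (1.48, SE 0.26, adjusted p = 0.0039). *Cdkn1c* was not called, at 142 and 205 against 169 and 292 CPM (-0.46, SE 0.44, adjusted p = 0.56). *Ccnd2*, at 445 and 464 against 328 and 320 CPM, was called with the block alone (0.44, adjusted p = 0.0068).

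Layer genes were lower in members than in the *Neurod6*-positive gate where they were called: 6 of 12 deep layer genes and 3 of 10 upper layer genes. *Bcl11b* (Ctip2) stood at 31.3 and 40.9 against 185 and 224 CPM and *Cux2* at 49.1 and 54.7 against 119 and 94.1 CPM, while *Fezf2* was not called, at 72.4 and 89.8 against 78.1 and 82.8 CPM. Without the doublet-scored barcodes 2 of the deep layer genes were called. Immediate early and dissociation genes were higher for 7 of 21, such as *Jun* at 114 and 85.1 against 30.1 and 34.7 CPM, and *Fos* at 26.9 and 7.86 against 2.85 and 2.28 CPM, where the members' libraries were far apart. *Jun* was lower in members than in the radial glia gate, at 308 and 309 CPM there.

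Among the 10 largest positive changes were *Sparc*, a matrix protein gene (57.8 and 58.7 against 4.75 and 8.48 CPM, and 177 and 184 CPM in the radial glia gate), the calcium sensor gene *Ncald* (147 and 96.9 against 20.9 and 18.5 CPM), *Mt3*, *Phgdh*, of serine synthesis (81.2 and 76.7 against 12.1 and 16.8 CPM), and *Gas1*. *Sparc* is also made by meningeal, endothelial and pericyte cells, and the meningeal list was higher in members than in this gate as well (31.7 and 18.6 against 1.42 and 2.53 CPM). Its part in these values was not tested. All 10 were called without the doublet-scored barcodes, and all but *Mt3* with gates on thinned barcodes. Of the 10 largest negative changes, led by the neuronal splicing regulator gene *Rbfox1* (34.05 and 104 against 1229 and 899 CPM), *Myt1l*, the calcium channel gene *Ryr3* and the adhesion gene *Cdh13*, 8 were called without the doublet-scored barcodes and 4 with thinned gates.

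Some genes were higher in members than in both the radial glia and the *Neurod6*-positive gate. Given here are the 14 with the largest changes by the smaller of the 2 fold changes, among genes called in both and at 50 CPM or more in members; they were chosen after their values were seen, and the comparisons share the members' sums. *Smoc1* (mm10 chr12:81026808-81186414), which encodes a secreted calcium-binding protein, stood at 204 and 187 CPM in members, 67.4 and 38.4 CPM in the radial glia gate and 47.2 and 40.0 CPM in the *Neurod6*-positive gate. *Trpc4* stood at 98.6 and 83.0 CPM, against 0.775 and 9.37 CPM and 17.8 and 24.4 CPM. The guidance genes *Slit1* (66.9 and 78.8 CPM, against 14.7 and 3.88 and 23.7 and 25.7 CPM) and *Sema3e* (53.4 and 67.8 CPM, against 3.87 and 1.94 and 19.0 and 23.4 CPM) were of this group.

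The chromatin remodeller gene *Chd7* stood at 724 and 759 CPM in members against 244 and 239 and 316 and 336 CPM, and the Rac regulator gene *Chn2* at 591 and 528 CPM against 50.4 and 45.2 and 307 and 214 CPM. The others were *Thsd7b*, *Lypd6*, *Nxn*, *Myo10*, *Magi1*, *Spsb4*, *Sdk2* and *Homer2*. In the cycling gate, *Smoc1* stood at 188 and 143 CPM and *Sema3e* at 60.4 and 70.4 CPM and neither was called, whereas *Trpc4*, *Thsd7b*, *Chn2* and *Nxn* were higher in members than there. All 14 were called in both comparisons without the doublet-scored barcodes. With gates on thinned barcodes, 13 were called against the radial glia gate (all but *Sdk2*) and 11 against the *Neurod6*-positive gate (all but *Myo10*, *Chn2* and *Spsb4*).

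**Figure D4:**
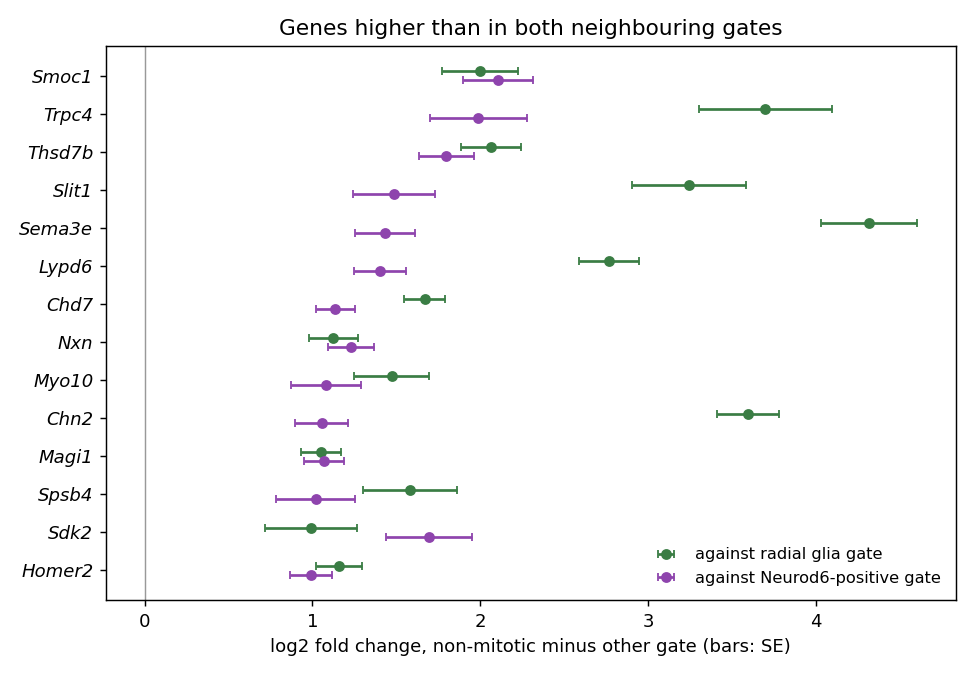
Log2 fold change ± SE (horizontal axis) of 14 genes in members minus the radial glia gate and members minus the *Neurod6*-positive gate. *Sema3e* stands at 4.32 and 1.43 and *Trpc4* at 3.70 and 1.99.

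The members were also compared among themselves. Members with at least 5000 UMIs were thinned to 5000, and those with a UMI of *Pax6* or *Sox2* and none of *Neurod1* were called early, those with a UMI of *Neurod1* and none of *Pax6* or *Sox2* late. Early members were 139 of 228 (61.0%) in replicate 1 and 180 of 343 (52.5%) in replicate 3, and late members 19 (8.33%) and 21 (6.12%). A further 20 and 26 members (8.77% and 7.58%) held both kinds of transcript and 50 and 116 (21.9% and 33.8%) held neither. Thinned to 3000 UMIs, 3.88% and 3.52% held both and 36.6% and 52.8% neither, so these shares depend on the depth. With so few late members per library the late sums are shallow, and 3 UMIs over both of them amount to 6.70 CPM. Low levels in late members, such as those of *Neurog1*, *Insm1* and *Tox* below, therefore rest on few UMIs. Of 8500 genes, 596 were called (7.01%; 4.13% higher and 2.88% lower in late members), with a median of -0.02. *Pax6*, *Sox2*, *Neurod1* and the genes of the rule were not tested.

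Of 23 radial glial genes tested, 15 were lower in late members and 0 higher, with a median of -2.23 (-2.07 with the genes at 0 set to their bounds). They follow *Pax6* and *Sox2*, which set the classes. *Vim* stood at 1391 and 1441 CPM in early and 519 and 437 CPM in late members (-1.53, SE 0.20), *Fabp7* at 654 and 521 against 137 and 106 CPM (-2.23, SE 0.24), and *Hes1* at 26.6 and 14.9 CPM against no UMI, at least 2.99-fold lower. *Insm1* was lower in late members, at 9.44 and 29.7 against 137 and 141 CPM (-2.65, SE 0.36, adjusted p = 0.00034), as was *Neurog1*, at 14.2 and 12.7 against 41.3 and 54.1 CPM (-1.67, SE 0.46, adjusted p = 0.038). None of the 6 tested Notch ligands and modulators was called by edgeR.

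Higher in late members were 5 of 19 proneural and neuronal factors: *Myt1l*, *Nhlh1*, *Tbr1*, *Sox11* and *Zbtb18*, with a list median of 0.46. *Nhlh1*, a bHLH factor of young neurons, stood at 132 and 119 CPM in late and 7.99 and 17.5 CPM in early members (3.09, SE 0.35, adjusted p = 6.3e-05), and *Tbr1* at 75.5 and 59.4 against 13.3 and 11.3 CPM (2.30, SE 0.36, adjusted p = 0.001). Migration genes were higher for 14 of 28 and lower for 4 (median 1.12), with *Unc5d* at 2322 and 1459 against 675 and 182 CPM (2.18, SE 0.42, adjusted p = 0.0043), *Rnd2* 1.13 higher (SE 0.23, adjusted p = 0.0074) and *Dcx* at 566 and 454 against 121 and 126 CPM. The libraries of late and early members did not overlap for these genes. *Neurod1* set the classes together with *Pax6* and *Sox2*, so neuronal and migration genes that go with *Neurod1* are not independent of the classes. Their differences are a description. S phase genes were lower for 4 of 26 and higher for 0, *Pcna* standing at 37.8 and 25.4 against 78.6 and 81.9 CPM.

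Regional factors were higher in late members for 6 of 12 and lower for 1 (median 0.97): *Lhx9*, *Nr2f2*, *Lmo4*, *Zic1*, *Emx2* and *Emx1* were higher, and *Meis2* lower. *Lhx9*, a LIM factor of medial cortex and hippocampus, stood at 160 and 144 against 9.33 and 27.8 CPM (2.88, SE 0.37), and *Nr2f2* at 250 and 115 against 43.3 and 30.4 CPM (2.27, SE 0.32). With classes set on barcodes thinned to 3000 UMIs, 2 were higher and 1 lower. Of 11 deep layer genes tested, 3 (*Zfpm2*, *Nfib* and *Nfia*) were higher and 1 (*Ldb2*) was lower, with a median of -0.18. *Zfpm2* was at 1505 and 1069 against 149 and 201 CPM (2.89, SE 0.23). *Ldb2* had 2 UMIs in late members and was 13.2-fold higher in early ones (counting interval 3.61 to 110). The largest positive changes included the secreted peptide gene *Chga* (170 and 106 against 11.3 and 11.3 CPM), *Nrp2*, a semaphorin receptor (264 and 127 against 14.7 and 15.5 CPM), and *Pcp4*. *Nhlh2*, of the Cajal-Retzius list above, was among them as well (4.39, SE 0.47, adjusted p = 4.0e-05), while *Ebf3* of that list was not called (-0.19). The largest negative changes included *Tox* (9.44 and 29.7 against 408 and 220 CPM), *Ptn* (33.03 and 42.4 against 622 and 469 CPM) and *Cdh6*, at least 11.6-fold lower, with no UMI in late members.

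**Figure D5:**
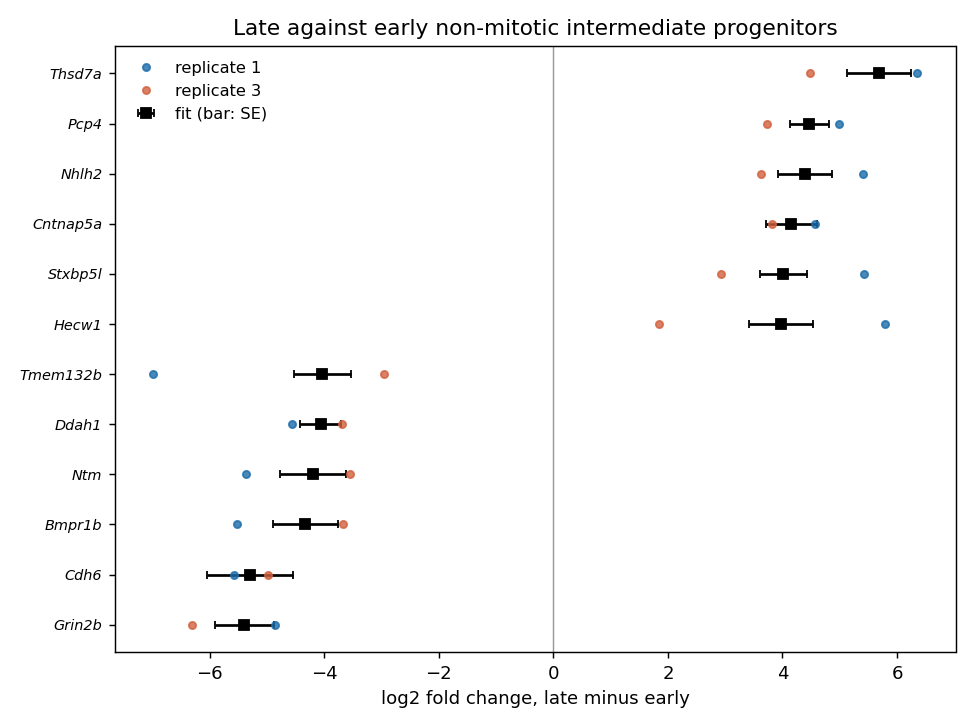
Log2 fold change, late minus early members (horizontal axis), of 12 genes, the 6 with the largest changes in each direction among called genes that moved alike in both libraries and stood at 50 CPM or more in both libraries of the higher class: the fit with its SE, and the value in each library as a point. *Pcp4* stands at 4.47 and *Ddah1* at -4.06; *Thsd7a*, *Grin2b*, *Cdh6*, *Bmpr1b* and *Ntm* had 0 to 3 UMIs in 1 of the classes, and their plotted values depend on the prior count.

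Receptors of signals from interneurons and neighbours were examined because the study asked which of their signals could be received by cortical progenitors. *Sstr2* (mm10 chr11:113619327-113626028), the somatostatin receptor, was at 98.2 and 101 CPM in members, 28.2 and 28.9 CPM in the cycling gate, 135 and 154 CPM in the *Neurod6*-positive gate and 3.099 and 2.58 CPM in the radial glia gate. It was higher in members than in the cycling gate (1.82, SE 0.17, adjusted p = 6e-05) and the radial glia gate (4.92, SE 0.20, adjusted p = 5.9e-07) and lower than in the *Neurod6*-positive gate (-0.59, SE 0.12, adjusted p = 0.0076). Thinned to 5000 UMIs, it had a UMI in 37.3% and 34.7% of members and in 0% and 1.11% of radial glia barcodes. Without thinning these shares were 49.8% and 51.1% of members and 3.54% and 2.84% of radial glia barcodes. Within members it was higher in late than in early (212 and 174 against 67.3 and 83.9 CPM, 1.35, SE 0.23, adjusted p = 0.0019).

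Of 31 receptors tested, 4 were higher and 0 lower than in the cycling gate, 5 higher and 9 lower than in the *Neurod6*-positive gate, and 8 higher and 9 lower than in the radial glia gate. Over all genes tested, 4.51% were higher and 7.32% lower than in the cycling gate. The shares were 6.75% and 7.80% against the *Neurod6*-positive gate, and 14.3% and 15.4% against the radial glia gate. The ephrin receptor *Epha3* stood at 1147 and 1090 CPM in members, 505 and 763 in cycling, 2322 and 2472 in *Neurod6*-positive and 184 and 99.8 CPM in radial glia barcodes, each difference being called (adjusted p from 2.6e-05 to 0.047). *Epha4* was higher than in the radial glia gate (676 and 751 against 458 and 539 CPM, 0.57, SE 0.13, adjusted p = 0.0091) and, with the block, lower than in the *Neurod6*-positive gate (-0.24, adjusted p = 0.022). *Ephb1* was higher in members than in the cycling and the *Neurod6*-positive gate, at 134 and 158 against 68.5 and 62.9 and against 95.9 and 100 CPM. *Nlgn1*, a neuroligin, was at 1395 and 1117 CPM and was called in no comparison of the gates. A missed call does not show equal levels.

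Ligands and secreted factors were higher for 4 and lower for 2 of 31 against the cycling gate, 8 and 5 against the *Neurod6*-positive gate, and 10 and 11 against the radial glia gate. As shares these were 12.9% and 6.45%, 25.8% and 16.1%, and 32.3% and 35.5%. Over all genes tested they were 4.51% and 7.32%, 6.75% and 7.80%, and 14.3% and 15.4%, so the share lower than in the cycling gate was near that of all genes. *Cxcl12*, the chemokine of the subventricular zone, was at 20.2 and 10.2 CPM in members, 54.8 and 41.8 CPM in the *Neurod6*-positive gate (-1.72, SE 0.26, adjusted p = 0.0018) and 7.75 and 6.14 CPM in the radial glia gate (1.11, SE 0.36, adjusted p = 0.041). *Wnt7b*, a Wnt ligand, was above the cycling gate (29.7 and 21.2 against 8.06 and 5.03 CPM) and below the *Neurod6*-positive gate (40.6 and 43.0 CPM). *Efnb2* was lower than in the radial glia gate, at 112 and 94.8 against 200 and 147 CPM (-0.68, SE 0.16, adjusted p = 0.0094), and *Ptn*, a growth factor of RGCs, was lower than there too, at 465 and 363 against 2175 and 1716 CPM.

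*Mllt3*, which encodes a reader of acetylated histones in the super elongation complex and whose symbol is part of the series' name for the mouse line, was expressed in members at 835 and 790 CPM, above the radial glia gate (508 and 499 CPM, 0.74, SE 0.11, adjusted p = 0.00072) and below the *Neurod6*-positive gate (1346 and 1297 CPM, -0.75, SE 0.11, adjusted p = 0.0014). It did not differ by call from the cycling gate (948 and 849 CPM, -0.10), and was called higher in late members with the block alone (0.55, adjusted p = 0.035). Of 11 genes of this list, 4 were higher and 1 lower than in the radial glia gate (14.3% and 15.4% over all genes tested). Lower than in the *Neurod6*-positive gate were 2 (*Aff3* and *Mllt3*), against 7.80% over all genes tested.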

How the data were processed

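The authors deposited filtered matrices of raw UMI counts per gene (32285) and barcode, made with Cell Ranger 7.0.0 on mm10 per the submitters' processing notes; annotation version, intron setting and cell calling are not given in the sources used here. Members and gene lists were chosen with earlier results of these data known. Counts were summed per gate and library and tested with edgeR 4.0.16 (TMM normalization, filterByExpr, quasi-likelihood test, prior count 2, Benjamini-Hochberg adjustment) in R 4.3.3; DESeq2 1.42.0 was an alternative. Each SE was derived by dividing the size of the log2 change by the root of its F statistic, and CPM were computed without TMM factors. Other steps ran in Python 3.11.15 (scanpy 1.11.5 for Scrublet, scipy 1.17.1 for intervals, numpy 2.4.6, pandas 2.3.3). Thinning drew UMIs at random (seed 1). Doublets were kept; an alternative removed the barcodes with the highest Scrublet scores, 0.8% per 1000 barcodes. Deposited depth was 64182006 and 93295807 UMIs, and intervals cover counting error only.

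Genes described in full and the lists were chosen by name; in addition each comparison named the 10 genes with the largest change in each direction, called, moving alike in both libraries, and at 50 CPM or more in the higher gate, without unnamed or mitochondrial genes. Genes higher in members than in both neighbouring gates were picked after their values were seen. A few genes that these rules name are not reported here. Positions are from RefSeq (mm10).

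Sums of the same number come from the same library, so the number pairs them. Their deviations from the gate means correlated at 0.0792 to 0.282 between gates and at 0.0164 between late and early members, across genes. The scripts were tested on simulated counts.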

Additional observations from a re-analysis of the deposited data

Results flagged for a closer look

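In replicate 3, 11 barcodes outside the limits on UMIs and mitochondrial share met every UMI term of the rule, and 1 did in replicate 1; the limits removed 1387 and 710 barcodes in all. These barcodes entered no comparison.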

How the results depend on the processing

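Over 247 pairs of gene and comparison, 2911 gene values were recomputed. Under another setting, a value counted as unchanged if it kept its direction and its side of the threshold. Without a replicate, it counted as unchanged if it lay within 1 SD (over the 2 libraries) of the fit. Each of 2 values lies within 1 SD of their mean by arithmetic, so this rule could hardly fail and is no check. Changes of sign without a replicate were counted for called genes only. By these rules 2713 were unchanged, 99 lost the call, 45 gained it, 31 moved without a test and 23 changed sign. The 2713 include the values without a replicate. Without a replicate, 1 library is left and no test could be made. The share of members (mean 4.66%) was 4.27% to 5.05% without a replicate, 5.50% with the stricter filter on barcodes, 5.96% with gates on thinned barcodes, 3.80% with no UMI of *Top2a*, *Mki67* and *Cenpf*, and 3.39% with at least 4 *Eomes* UMIs. Calls against the cycling gate (1461) fell to 755 with barcodes thinned before summing. Against the *Neurod6*-positive gate (1796) they were 2873 with the replicate block, 1082 with DESeq2 and 235 with gates on thinned barcodes. Against the radial glia gate (3661) DESeq2 gave 2440. Late against early (596) gave 319 with DESeq2, 353 with classes set at 3000 UMIs and 273 with at least 4 *Eomes* UMIs. The block changed no other count of calls by over 1.5 times. At 3000 UMIs, the mean shares of members with a UMI were 33.8% for *Pax6*, 23.5% for *Sox2*, 10.8% for *Neurod1*, 10.2% for *Neurog1*, 24.1% for *Sstr2* and 4.94% for *Hes5*, against 41.6%, 41.1%, 15.4%, 17.2%, 35.99% and 7.96% at 5000.

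The changes of sign so counted, in log2 fold change, were these. Genes that were not called and changed sign without a replicate are not among them. Against the cycling gate: *Dll1* -0.038 and *Hes5* 0.051 without doublet-scored barcodes, *Tbr1* -0.46, *Pax6* 0.0093, *Hes5* 0.40 and *Rnd2* -0.24 with gates on thinned barcodes, and *Hes5* 0.10 and *Akna* -0.10 with barcodes thinned before summing. Against the *Neurod6*-positive gate: *Mfng* -0.083, *Hs6st2* 0.55, *Ntm* 0.55 and *Nrg3* 0.29 without doublet-scored barcodes, and *Dll3* 0.087, *Mfng* -0.13 and *Akna* -0.21 with gates on thinned barcodes. Against the radial glia gate: *Nlgn1* 0.02 with no filter on low counts, and *Ccnd1* -0.052 with gates on thinned barcodes and -0.11 with no cycle UMI. Late against early: *Dll3* -0.52, *Hes5* 1.505 and *Akna* 0.020 with classes set at 3000 UMIs, and *Dll3* -0.084 and *Lrp8* -0.025 with no cycle UMI. The cause of these changes was not tested. Of these, only *Rnd2*, *Hs6st2*, *Ntm* and *Nrg3* were called in the comparison as reported. With the replicate block, *Efnb2* (-0.51, adjusted p = 0.0050) and *Lrp8* (0.34, adjusted p = 0.011) were called against the *Neurod6*-positive gate, and *Ccnd1* (-1.22, adjusted p = 0.017), *Ccnd2* (-0.76, adjusted p = 0.0037) and *Efnb2* (-0.83, adjusted p = 0.046) in late against early members.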

Other observations

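*Gmnc*, a regulator of multiciliated cell fate, stood at 16.6 and 16.8 CPM in members against 1 UMI in the whole *Neurod6*-positive gate (ratio 202, counting interval 35.5 to 8068) and 1 UMI in the radial glia gate (ratio 73.3, 12.9 to 2922). Within members it was at 28.0 and 9.78 CPM in early members and had no UMI in late ones. It was chosen after its values were seen.

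A further 14 genes were lower in members than in both the radial glia and the *Neurod6*-positive gate, chosen after their values were seen. Without the doublet-scored barcodes, 4 of them were still called against the *Neurod6*-positive gate, and *Hs6st2*, *Ntm* and *Nrg3* changed sign there. With gates on thinned barcodes, 1 of the 14 was still called against that gate.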
